A study of Mus musculus with 8 samples.

Results

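The 191 sites described here were more accessible in Pggt1b-deficient eTreg cells than in any of the other 3 cell groups of the study, out of 79758 sites measured (0.239%). Accessibility was measured by ATAC-seq, where an enzyme inserts adapters into exposed DNA, so that open regions yield more reads. The values are counts per site, scaled so that each library adds up to 1000000 over all sites (CPM). A site belonged to the set when both Pggt1b-deficient eTreg libraries had at least 4 CPM and WT eTreg and WT cTreg differed by less than 1 on the log2 scale. In addition, the pooled Pggt1b-deficient eTreg level had to be at least 2 times that of each of the other 3 groups. Folds were computed after adding 0.5 CPM to both sides. These levels chose the sites, so their height in Pggt1b-deficient eTreg cells is a description and was not tested.

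The 8 libraries were made from mouse Treg cells of the spleen and lymph nodes of mixed bone marrow chimeras, animals in which marrow of more than 1 donor develops in 1 host. There were 4 groups of 2 libraries: WT cTreg, WT eTreg, Pggt1b-deficient cTreg and Pggt1b-deficient eTreg, the last 2 called KO cTreg and KO eTreg from here on. In the usual terms, cTreg are central and eTreg effector Treg cells. The labels name the genotype only as WT or Pggt1b-deficient. The sources used here do not give the Cre line or promoter behind the deletion, the age of the animals or the sort markers. They also do not say whether the libraries of 1 group stem from different chimeras, so any p-value measures only how these libraries vary, and that variation may be technical.

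Treg cells are CD4 T cells that hold back immune responses and depend on the transcription factor Foxp3. Central Treg cells circulate through lymphoid organs in a resting state, and effector Treg cells arise from them after antigen contact and move into tissues. The enzyme that contains Pggt1b attaches an isoprenoid lipid to small GTPases, which lets them act at membranes. Differences in accessible chromatin between cell states lie mostly at enhancers, and promoters of housekeeping genes stay open in most cells. The coordinates are those of the mouse build mm9 (NCBIM37). The gene table at hand belongs to GRCm38, so genes, exons, introns and UTRs at the sites are not named, markers of Treg or other cells were not read, and no sequence is printed.

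Library totals ran from 7153991 to 14974253 counts in the 3 comparison groups but were 2255214 and 1664702 in the KO eTreg libraries. The minimum of 4 CPM thus corresponded to 9 and 6.7 counts in these 2 libraries and to 28.6 to 59.9 counts in the others. Of the 191 sites, 123 (64.4%) had fewer than 50 counts over both KO eTreg libraries and 23 (12%) had 100 or more. No count at all was recorded at 12.5% and 16.4% of all sites in the KO eTreg libraries, against 0.606% to 2.6% in the other 6.

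The sites were weak in the 3 comparison groups, with similar medians. The rule limited the difference between the WT groups and kept all 3 groups below KO eTreg cells, so this likeness is partly set by the choice. At single sites the log2 ratio ranged from -0.92 to 0.988 for WT eTreg over WT cTreg. For KO cTreg over WT cTreg it ranged from -1.28 to 1.13. The median level was 2.74 CPM in WT cTreg, 2.83 CPM in WT eTreg and 3 CPM in KO cTreg cells, against 9.44 CPM in KO eTreg cells. By library, the medians were 2.79 and 2.76 CPM in WT cTreg, 2.68 and 3.01 CPM in WT eTreg, 2.82 and 3.21 CPM in KO cTreg and 8.87 and 7.81 CPM in KO eTreg libraries. The 27431 sites that met the level and WT conditions but not the fold had a median of 16.7 CPM in WT cTreg and 15.8 CPM in KO eTreg cells. In KO eTreg cells 103 of the 191 sites were under 10 CPM, 69 were at 10 to under 30 CPM, 14 at 30 to under 100 CPM and 5 at 100 CPM or more. The set held 0.367% and 0.339% of all counts in the KO eTreg libraries and 0.0908% to 0.116% in the other 6.

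**Figure D1:**
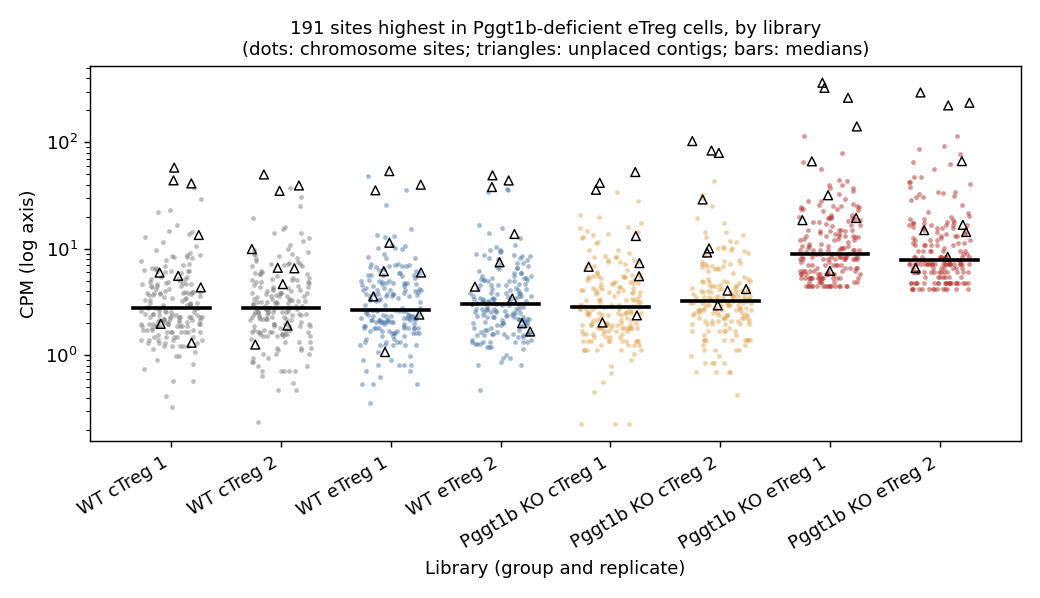
Level of the 191 sites in CPM (log axis) in each of the 8 libraries, with dots for sites on chromosomes, triangles for sites on unplaced contigs and bars at the medians. The medians are 2.68 to 3.21 CPM in the 6 comparison libraries and 8.87 and 7.81 CPM in the KO eTreg libraries.

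At 187 of the 191 sites both KO eTreg libraries lay above all 6 other libraries. This order was found at 7.08% of all sites and at 12.6% of those that met the level and WT conditions but not the fold. The rule compared pooled groups on the same values, so nothing is read from the count of 187. The smallest fold, that of KO eTreg cells over the highest of the other groups, had a median of 2.3 and reached 16.3. It was under 2.5 at 131 sites, 3 or more at 31 and 4 or more at 13. The highest of the other groups was KO cTreg at 84 sites, WT eTreg at 67 and WT cTreg at 40.

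The site with the largest smallest fold, chr17:65208313-65208351, is 38 bp wide. It had 0.328 and 0.711 CPM in WT cTreg, 0.715 and 0.868 CPM in WT eTreg, 1.13 and 0.699 CPM in KO cTreg and 8.42 and 42.7 CPM in KO eTreg libraries. All 6 comparison libraries were near 1 CPM or below, and the 2 KO eTreg libraries were far apart. The ratio to KO cTreg cells was 24.5, with a 95% counting interval (Clopper-Pearson) of 11.2 to 62.1. Here and below such intervals take every 2 counts as 1 observation, because 66.1% to 77.4% of counts from 1 to 10 were even in each library, and they cover counting error only. They leave out the spread between replicates. The same counts chose the sites for a high ratio, so the ratios tend to be too high and the intervals do not allow for that choice.

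At chr7:128126681-128126746 both replicates agreed more closely. Its level was 1.97 and 2.53 CPM in WT cTreg, 2.77 and 1.94 CPM in WT eTreg, 2.48 and 2.66 CPM in KO cTreg and 23.9 and 19.8 CPM in KO eTreg libraries. The 6 comparison libraries spanned less than 1 CPM, and the lower KO eTreg library was 7.16 times the highest of them. The mean was 21.9 ± 2.91 CPM (SD, n = 2) in KO eTreg cells, and the ratio to the highest other group was 8.67 (95% counting interval 5.02 to 15.4). This ratio rested on 54 and 33 counts in the 2 libraries.

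At chr12:52988996-52989062 the levels were 3.69 and 5.06 CPM in WT cTreg, 2.68 and 2.54 CPM in WT eTreg, 3.61 and 5.03 CPM in KO cTreg and 37.2 and 25.8 CPM in KO eTreg libraries. A second site of the set, chr12:52988713-52988854, lies 142 bp away. Its levels were 16.8 and 19.4 CPM in WT cTreg, 12.8 and 14 CPM in WT eTreg, 21 and 17.6 CPM in KO cTreg, and 43 and 40.8 CPM in KO eTreg libraries. Both neighbours were thus highest in the same 2 libraries, by smallest folds of 6.74 and 2.13. A DNA fragment may reach across both, so they are not independent.

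The remaining 2 chromosome sites complete the 8 with the largest smallest fold, of which the other 3 lie on a contig described below. chr13:111159126-111159212 had 3.48 to 4.75 CPM in the WT libraries, 2.82 and 4.47 CPM in KO cTreg, and 10.2 and 46.9 CPM in KO eTreg libraries. Its smallest fold of 5.21 rested mainly on replicate 2. chr18:60900248-60900311 had 0.237 to 0.935 CPM in the WT libraries, 1.02 and 1.12 CPM in KO cTreg and 8.42 and 4.2 CPM in KO eTreg libraries, with 19 and 7 counts in the last 2. Its ratio of 6.25 had a 95% counting interval of 2.44 to 16.9.

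Strong sites were rare in the set. The widest, chr3:138539947-138540464, spans 517 bp and had 34.3 to 48.1 CPM in the 6 comparison libraries and 115.3 and 93.1 CPM in the KO eTreg libraries. chr17:84107286-84107398 had 28.2 to 36.1 CPM in the 6 and 79.8 and 66.1 CPM in the 2. In each of these sites the groups did not overlap, and the counting intervals of their ratios, 2.17 to 3 and 1.7 to 2.49, were narrower than those of the weak sites.

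The 2 KO eTreg libraries did not contribute equally. Each library taken alone was at least 2 times every other group at 98 of the 191 sites (51.3%). At 64 sites replicate 2 alone fell under 2 times, and at 29 sites replicate 1 did. The 2 libraries differed from each other by 2 times or more at 21 sites (11%), against 5.06% of the 27431 sites that missed only the fold. Those 27431 sites were stronger, with a median of 15.8 CPM in KO eTreg cells against 9.44 CPM. The median absolute log2 difference between the 2 libraries was 0.406 in the set and 0.29 at the 27431. It was 0.765 at 20807 sites outside the set with a WT cTreg level between its quartiles. These had no minimum level in KO eTreg cells. At 115 sites replicate 1 was the higher one.

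**Figure D2:**
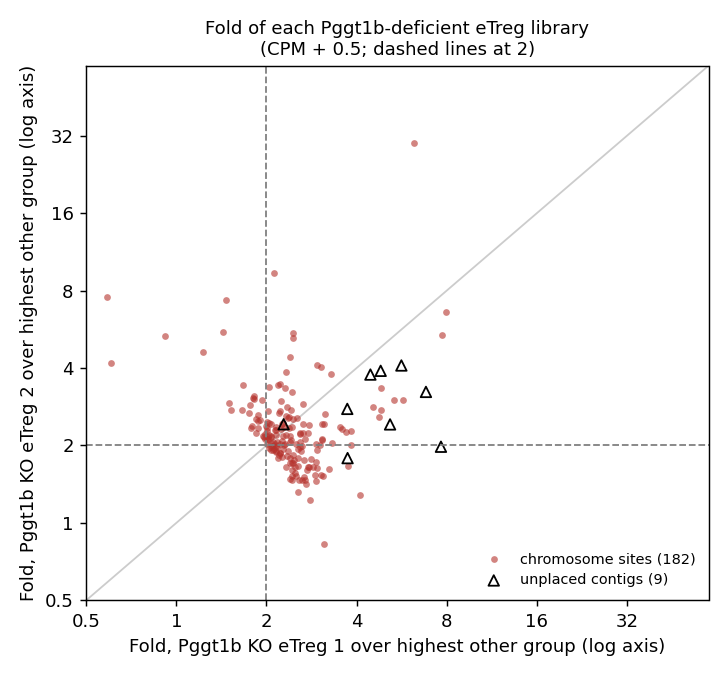
Fold of each KO eTreg library over the highest of the other 3 groups at the 191 sites (CPM + 0.5, both axes log; dashed lines at 2), with triangles for the 9 sites on unplaced contigs. At 98 sites both libraries reach 2, and at the others only 1 does while the pooled level passes.

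The 4 sites whose KO eTreg libraries differed most were all high in replicate 2. chr6:34872074-34872280 had 4.43 and 63.1 CPM there and chr14:104871138-104871242 had 4.43 and 33.6 CPM. The other 2 were chr11:119290269-119290394 at 6.21 and 38.4 CPM and chr2:26502439-26502558 at 22.6 and 115.9 CPM. At the first 3 of these, replicate 1 lay below the highest comparison library, so that the groups overlapped. chr6:34872074-34872280, for example, had 5.76 and 2.38 CPM in KO cTreg and 5.9 and 9.42 CPM in WT eTreg libraries.

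The threshold cut through a continuous range. Just inside it, chr1:174450723-174450929 had 6.43 to 9.24 CPM in the 6 comparison libraries and 19.5 and 18 CPM in the KO eTreg libraries. chr1:183141314-183141385 passed with 4.43 and 4.2 CPM, which are 10 and 7 counts, over 0.536 to 2.94 CPM in the others. Just outside, chr6:113188526-113188622 had 6.21 and 9.61 CPM over 3.01 to 3.93 CPM. Such values do not separate sites in the set from sites beside it.

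Whether the order repeats in a library that had no part in the choice was measured by applying the rule with a single KO eTreg library. With replicate 1, the rule chose 697 sites. In replicate 2, 107 of these (15.4%) were again at least 2 times every other group, where 0.827% of the 31916 sites that met the level and WT conditions were. Their median fold in replicate 2 was 1.18, against 0.856 over those 31916 sites. With replicate 2 the rule chose 771 sites, of which 114 (14.8%) repeated in replicate 1, against 0.945%. Over all sites, with no minimum level, 1.73% reached 2 times in replicate 2 and 1.59% in replicate 1. Most sites chosen from 1 library thus fell short of 2 times in the other, while the share that repeated was above these shares. At strongly lower folds, too, the chosen sites were more frequent than all sites that met the level and WT conditions. Their folds were thus more widely spread, and the higher share beyond 2 times is not read as repetition alone. Sites of the same level as the chosen ones were not compared. The comparison groups were the same in both steps and tie the 2 readings together. With same-numbered libraries of all groups in each step, 11.5% and 11.3% repeated, against 0.746% and 0.904%, and the median folds were 1.01 and 0.994, against 0.847 and 0.842.

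**Figure D3:**
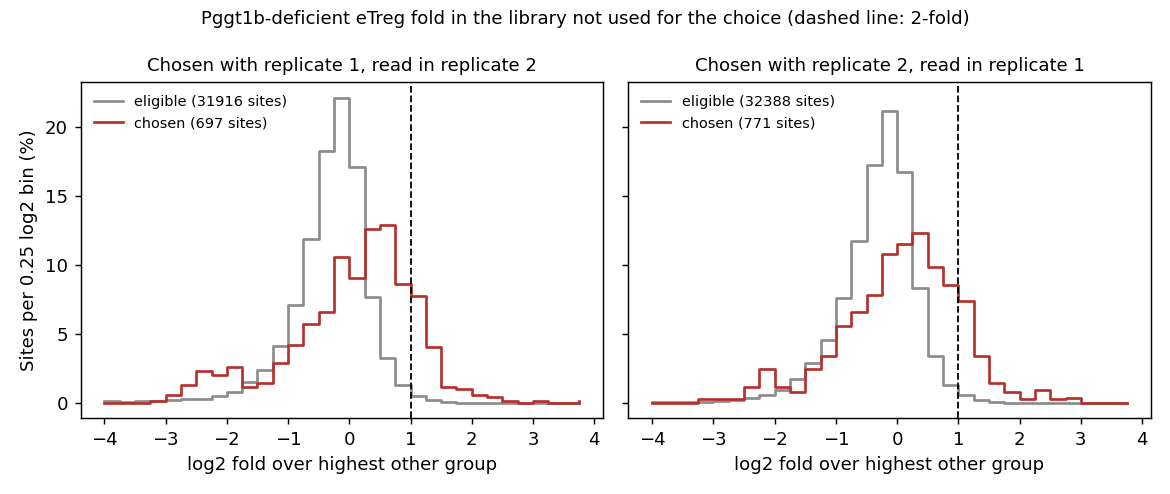
Share of sites (y, percent per 0.25 log2 bin) by log2 fold in the KO eTreg library that was not used for the choice (x), for chosen sites (red) and all sites meeting the level and WT conditions (grey), in the 2 directions. The chosen sites are more frequent than the grey line at high folds, with 15.4% and 14.8% beyond the dashed 2-fold line. They are also more frequent at strongly lower folds. The bin starting at -2.25 holds 2.01% of them in replicate 2 and 2.46% in replicate 1, against 0.53% and 0.605%.

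The same rule was then applied to KO cTreg cells. At full depth it found 17 sites highest in that group, none with a smallest fold of 3 or more, against 191 for KO eTreg cells. When the counts of all libraries were thinned at random, in 1 draw, to the smallest total, 1664702, it found 152 sites highest in KO cTreg and 226 highest in KO eTreg cells. Of these, 14 and 37 had a smallest fold of 3 or more, and the largest was 4.22 and 18.2. The numbers of sites in the 2 Pggt1b-deficient groups thus lay closer together after thinning. Thinning matched the total over sites alone. It drew counts singly, although most low counts were even, and KO eTreg replicate 2, the smallest library, kept all its counts. The counting noise may therefore still differ between the groups, so the thinned values are not a fully matched comparison. The cause of the change was not tested. The thinned set shared 102 sites with the 191, which are 53.4% of the 191 and 45.1% of the 226. Sites chosen from 1 thinned KO cTreg library repeated in the other at 18.1% and 18.3%, and those from 1 thinned KO eTreg library at 16.4% and 18.3%, against 0.794%, 0.903%, 1% and 1.12% of all sites that met the level and WT conditions. With same-numbered libraries of the other groups these shares were 6.21% and 8.62% for KO cTreg and 7.73% and 9.38% for KO eTreg cells, against 0.683%, 0.894%, 0.719% and 1.07%. Over all sites, with no minimum level, they were 3.04%, 2.82%, 2.11% and 2.79% in the same order. The median folds in the library not used were then below 1, at 0.888 and 0.948 for KO cTreg and 0.894 and 0.845 for KO eTreg cells. In the mirrored direction, at full depth, 289 sites were lowest in KO eTreg cells by at least 2 times. They were 1.06% of 27170 sites that met the WT condition and had at least 4 CPM in all 6 other libraries. That minimum falls on the deeper libraries and is thus unlike that of the set.

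**Figure D4:**
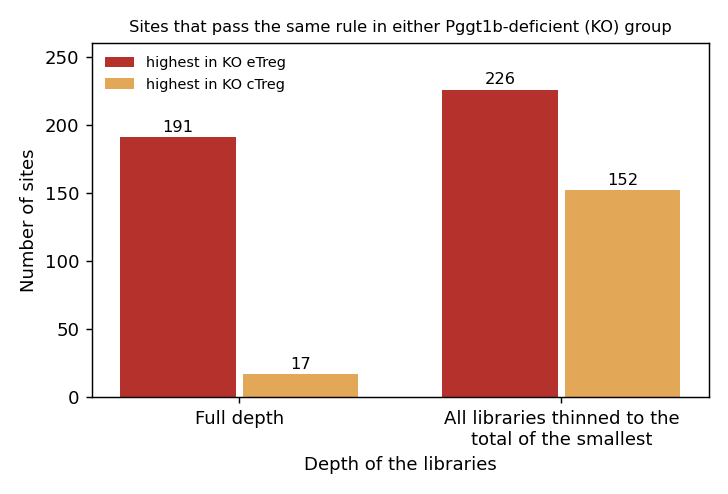
Number of sites (y) that pass the same rule as highest in KO eTreg (red) or KO cTreg cells (yellow), at full depth and with all libraries thinned to the smallest total. The counts are 191 and 17 at full depth and 226 and 152 after thinning.

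The set held more sites on unplaced contigs than its size would give from all sites. These contigs are sequences of the genome build that are not assigned to a chromosome and are often rich in repeats. Contigs held 9 of the 191 sites (4.71%), 0.171% of the sites that missed only the fold and 0.142% of all sites. The 9 sites lie on 6 contigs, of which 3 carry 1 site each that is in the set and no other. All 4 sites of contig NT_166476 belonged to it, side by side on it. The sources used here do not say whether reads with several matches in the genome were kept.

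The 9 contig sites ranged from 6.38 to 334.7 CPM in pooled KO eTreg cells, and 4 of them were the strongest sites of the set. Their summed level was 175.8 and 155.4 CPM in WT cTreg, 160 and 163.9 CPM in WT eTreg, 167.6 and 326.1 CPM in KO cTreg and 1237.1 and 881.8 CPM in KO eTreg libraries. Both WT groups and replicate 1 of KO cTreg were alike, replicate 2 of KO cTreg was about 2 times as high, and both KO eTreg libraries were higher still. The sum over the 104 contig sites outside the set spanned a much smaller range, 1646.5 to 1929.3 CPM over the 8 libraries, with 1679.9 ± 47.3 CPM (SD, n = 2) in KO cTreg and 1916.5 ± 18.1 CPM in KO eTreg libraries, against 1769.2 ± 20 CPM in WT cTreg and 1835.6 ± 39 CPM in WT eTreg libraries. Single sites among the 104 varied more, with smallest folds from 0.21 to 3.84. The latter, NT_166291:34490-34528, missed the set with 3.55 CPM in KO eTreg replicate 1.

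The highest contig site, NT_166473:10447-10671, had 58 and 50 CPM in WT cTreg, 53.8 and 49.1 CPM in WT eTreg, 52.7 and 103 CPM in KO cTreg and 364 and 294.9 CPM in KO eTreg libraries. NT_166476:23005-23272 had 35.1 to 41.2 CPM in the 4 WT libraries, 35.9 and 83.9 CPM in KO cTreg and 325.9 and 236.1 CPM in KO eTreg libraries. NT_166476:22301-22611 had 39.4 to 44 CPM in the WT libraries, 41.7 and 79.7 CPM in KO cTreg, and 262.9 and 222.9 CPM in KO eTreg libraries. The same library, replicate 2 of KO cTreg, stood out at all 3. NT_166476:22736-22796 and NT_166476:21950-22005 showed the same order at lower levels, with 141.4 and 66.7 CPM and 66.5 and 16.8 CPM in the KO eTreg libraries.

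In raw counts the contig sites differed little between libraries of very different depth. Summed over the 9 sites, the counts were 2145 and 1968 in WT cTreg, 1791 and 2454 in WT eTreg, 1484 and 2333 in KO cTreg and 2790 and 1468 in KO eTreg libraries, a span of 1.9 times. The library totals spanned 9 times, and the 104 other contig sites spanned 8.8 times. Over the 182 chromosome sites of the set the span was 2.8 times. A fold of 2 in favour of the 2 shallowest libraries narrows the span in raw counts by construction, so the narrow span belongs to the description of the set. Reads outside the sites were not analysed here, so whether these sites follow the total sequenced rather than the total in sites was not tested.

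**Figure D5:**
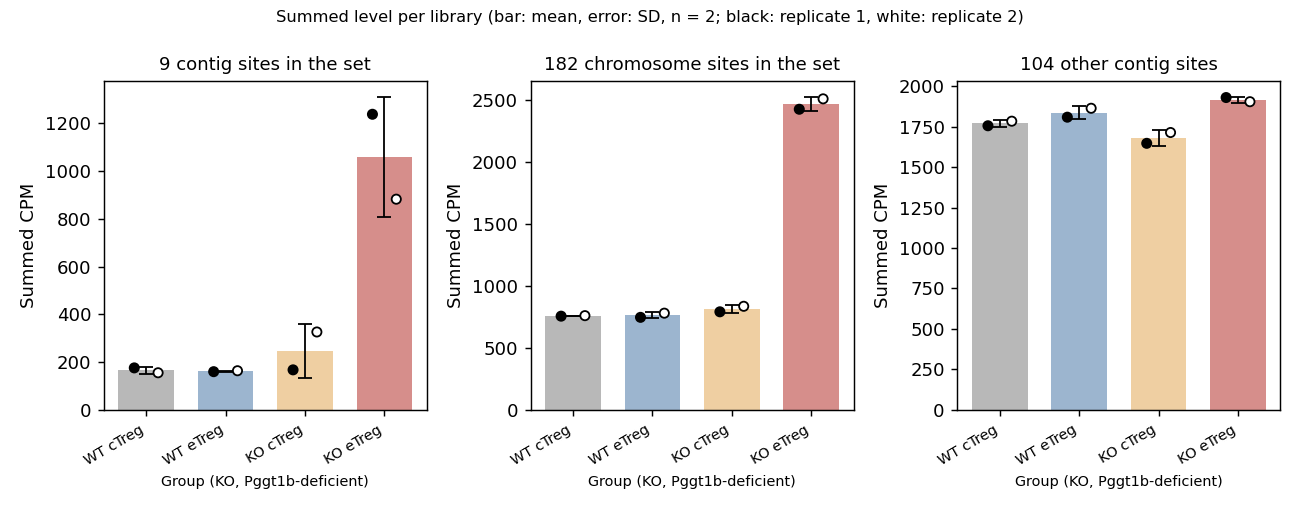
Summed CPM per group (bars: mean; error: SD, n = 2; black and white points: replicates 1 and 2) over the 9 contig sites of the set, its 182 chromosome sites and the 104 other contig sites. Replicate 2 of KO cTreg stands at 326.1 CPM over the 9 contig sites, against 155.4 to 175.8 CPM in the WT libraries and replicate 1, and the sum over the 104 other contig sites differs little between groups.

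The difference between the 2 KO cTreg libraries was not used by the rule. Replicate 2 was higher than replicate 1 at 8 of the 9 contig sites, with a median log2 difference of 0.71, against -0.03 at the 104 other contig sites. Of the 9, 4 lie side by side on contig NT_166476, so they are not 9 separate observations. The 9 ranged from -0.41 to 1.21. The 104 ranged from -1.98 to 2.22, with 43.3% higher in replicate 2. Single sites outside the set thus differed as much, such as NT_166313:243257-243329 with 18 and 81 counts. At the 182 chromosome sites of the set the median was 0.09 and replicate 2 was higher at 54.9% of sites, against 49.4% of the sites that missed only the fold. The 2 libraries differed by 2 times or more at 16 of the 191 sites, 10 of them (5.24%) higher in replicate 2 and 6 (3.14%) higher in replicate 1, against 0.306% and 0.273% of the sites that missed only the fold. The median KO cTreg level was 3 CPM in the set and 16.7 CPM at the latter. These shares thus compare sites of unlike level, and sites of like level were not compared. An example on a chromosome is chr6:16310244-16310309, a 65 bp site named after its values were seen. It had 13.9 and 30.1 CPM in KO cTreg, 65.2 and 86.5 CPM in KO eTreg and 12.6 to 22 CPM in the WT libraries.

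The ratio between Pggt1b-deficient and WT cTreg cells was no condition of the rule, but the levels of both groups were, since each had to lie well below KO eTreg cells. The values of this contrast are therefore not independent of the choice of sites. The median log2 ratio of Pggt1b-deficient over WT cTreg was 0.1, and 123 of 191 sites (64.4%) were above 0, against 46.1% of all sites and 51.1% of those that missed only the fold. The median was 0.18 from replicate 2 of KO cTreg alone and 0.05 from replicate 1 alone. In edgeR's quasi-likelihood test over 75352 sites, adjusted p under 0.05, n = 2 and 2, 3 of the 191 sites were higher and 1 lower in KO cTreg cells. Over all sites 0.53% were called higher and 1.69% lower, and 19 of the 191 sites (9.95%) had an unadjusted p under 0.05, against 13.7% of all tested sites.

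All 3 higher sites were on contigs. NT_166476:23005-23272 rose by 0.63 ± 0.18 on the log2 scale (SE; edgeR adjusted p = 0.0465), NT_166476:22301-22611 by 0.52 ± 0.14 (edgeR adjusted p = 0.0431) and NT_166473:10447-10671 by 0.51 ± 0.14 (edgeR adjusted p = 0.0499). None of the 3 calls was made without replicate 2 of KO cTreg, where the edgeR adjusted p-values were 0.911, 0.997 and 0.972. Whenever a library is left out, the single one that remains is assumed to vary like the other groups. Without WT cTreg replicate 1 they were 0.161, 0.18 and 0.158, and without WT cTreg replicate 2 they were 0.445, 0.405 and 0.475. DESeq2 gave 0.584, 0.513 and 0.545. The last of the 3 sites was also lost without WT eTreg replicate 1 (edgeR adjusted p = 0.0508), and limma gave 0.0656 at the first. The count of 4 called sites became 1 without WT cTreg replicate 1, 0 without WT cTreg replicate 2, 1 without KO cTreg replicate 2, and 7 without KO eTreg replicate 1 or replicate 2. The lower site, chr7:125260523-125260573, had 5.16 and 7.42 CPM in WT cTreg, 1.92 and 2.8 CPM in KO cTreg, 3.57 and 3.87 CPM in WT eTreg and 15.1 and 15.6 CPM in KO eTreg libraries. It fell by 1.44 on the log2 scale (SE 0.34, edgeR adjusted p = 0.0152), but the adjusted p was 0.369 without WT cTreg replicate 2 and 0.29 without KO cTreg replicate 1.

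For the contrasts that the rule used, edgeR calls are given as a description. Against WT eTreg, 147 of the 191 sites were called higher in KO eTreg cells, where 4.66% of all sites were. Against KO cTreg, 136 were called higher, where 4.59% of all sites were. Both calls were made at 114 sites and neither at 22, and all 22 had fewer than 50 counts over the KO eTreg libraries. In the interaction, the effect of Pggt1b loss in eTreg minus that in cTreg cells, 50 were called higher, where 0.957% of all sites were. The first count was 91 without WT eTreg replicate 1 and 71 without KO eTreg replicate 1. The second was 77 without KO cTreg replicate 1 and 65 without KO eTreg replicate 1. The third was 28 without WT cTreg replicate 2 and 33 without WT eTreg replicate 1.

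The sites were narrow, with a median width of 86 bp, and 116 of 191 (60.7%) were at most 100 bp wide. Sites that missed only the fold had a median of 267 bp, and 7.96% of them were at most 100 bp. The width matched that of weak sites in general: 20807 sites outside the set with a WT cTreg level between the quartiles of the set, 1.89 and 4.83 CPM, had a median of 85 bp, and 63.5% were at most 100 bp. The sites lowest in KO eTreg cells were wider, with a median of 168 bp. 

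The chromosome sites were scattered. Every autosome and the X chromosome held 3 to 18 of them, from 0.112% of the sites on chromosome 18 to 0.442% of those on chromosome 12. Beside the contig, 7 windows of 200 kb held 2 sites each and none held more. The strongest of these windows, by summed level, were the chr12 pair above and a pair on chromosome 1. In the latter, chr1:141310238-141310353 had 4.75 to 8.85 CPM in the 6 comparison libraries and 18.2 and 17.4 CPM in KO eTreg libraries, and chr1:141377898-141377984 had 3.39 to 5 CPM and 24.8 and 13.2 CPM. The nearest other site was within 1 kb at 53.9% of the 191 sites, against 55.9% of the weak sites of like level, and over 10 kb away at 19.4%, against 14.3%.

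The 683 sites outside the set within 10 kb of one of its sites had a median log2 ratio of 0.05 for KO eTreg over the mean of the other groups, against -0.12 over all sites outside the set and 0.03 over those that missed only the fold. Above 0 were 54.3% of the 683 and 53.3% of the sites that missed only the fold, and the 2075 sites within 50 kb had a median of 0. Their median KO eTreg level was 4.08 CPM, against 3.32 CPM over all sites outside the set. Of the 683, 34 (4.98%) reached 2 times, against 2.05% of all sites outside the set. With replicate 2 as the sole KO eTreg library these shares were 5.86% and 4.27%, and with replicate 1 alone 8.05% and 3.86%. At the 519 of the 683 sites more than 1 kb away the median was also 0.05. The sign did not hold without KO eTreg replicate 1: with replicate 2 as the sole KO eTreg library the median near the set was -0.07, against -0.15 over all sites outside it, and with replicate 1 alone it was 0.08, against -0.15.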

How the data were processed

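The deposited values are raw counts per site in 1 table, with 8 columns that each matched 1 sample title. On the authors' side, the submitters' processing notes name bedtools, MACS2 2.1.1, SAMtools, Picard 2.9.4 and Trimmomatic 0.36, and the build mm9. The sources used here do not give the aligner, the shift of read ends, the peak threshold, the handling of reads with several matches, or whether positions count from 0 or 1.

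Library and group CPM use the column totals over all sites. Calls come from R 4.3.3 and edgeR 4.0.16 (filterByExpr, which kept 75352 sites and all 191 of the set, TMM, 1 mean per group over 8 libraries, quasi-likelihood test, Benjamini-Hochberg over all tested sites), checked on simulated counts. Alternatives used DESeq2 1.42.0 and limma 3.58.1. The sites and lists were chosen with earlier results of these data known. Sites named are the 8 with the largest smallest fold, the 6 with the highest lower KO eTreg library, the 4 whose 2 such libraries differ most, the 3 on either side of the fold threshold, those in the 3 densest 200 kb windows (ties broken by summed level), called sites of the cTreg contrast and the 3 with the widest gap between groups; not all are printed. The gene lists, markers and motifs planned were not run, for want of an annotation on mm9.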

Additional observations from a re-analysis of the deposited data

Results flagged for a closer look

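The effect of Pggt1b loss differed between eTreg and cTreg cells at 50 of the 191 sites by edgeR's interaction test over all 8 libraries (adjusted p under 0.05), where 0.957% of all 75352 tested sites were called in the same direction, and was higher in eTreg cells at each of them. All 50 were also called against both WT eTreg and KO cTreg. The interaction is built from the contrasts that chose the sites, so the count describes the choice.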

How the results depend on the processing

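The number of sites followed the thresholds and the KO eTreg libraries. It was 373 and 78 with a CPM minimum of 2 and 8, 928 and 31 with a fold of 1.5 and 3, 94 with 2 added to CPM and 98 with each library alone at 2 times. Leaving out each library in turn gave 181 to 771. Without unplaced contigs, a choice made after seeing the data, 182 remained. Counts of called sites over the leave-one-out settings ran from 71 to 143 against WT eTreg, 65 to 126 against KO cTreg, 0 to 7 for the cTreg contrast and 28 to 59 for the interaction. The cTreg count of 4 was 1 with DESeq2, 1 without contigs and 7 with only the 4 libraries compared in the model. The median near the set turned to -0.07 without KO eTreg replicate 1 and was 0.08 without replicate 2. The share that repeated was 11.5% and 11.3% with same-numbered libraries. Without KO cTreg replicate 2 the direction reversed at NT_166476:23005-23272 and NT_166473:10447-10671. Leaving out each library in turn, the edgeR adjusted p ran from 5.79e-07 to 0.911 at the first and from 5.47e-06 to 0.972 at the second. The lowest of these rest on KO cTreg replicate 2 alone, with the spread taken from the other groups. The cause of these changes was not tested.

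The sources used here do not say whether libraries of the same number are paired. Differences between replicates 1 and 2 correlated between groups at -0.0156 to 0.0582 over the tested sites. These values cannot decide it, because counting noise at weak sites lowers such correlations. With the number as a replicate block, 138, 127, 4 and 50 sites were called in these 4 contrasts.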
